A study of Mus musculus with 6 samples.

Results

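The 30 genes described here encode enzymes of mitochondrial fatty acid oxidation (16 genes) and of pyruvate dehydrogenase and the TCA cycle (14 genes). They were taken by gene symbol from the deposited table of 57010 genes, and each symbol had 1 row. RNA came from the skin of 6 wild-type mice, 1 library per mouse, when a diabetic ulcer experiment ended. In 3 mice the gel put on the skin carried CST, which the series title ties to the neuropeptide cortistatin. The remaining 3 mice received a gel with Yoda1, a small molecule that opens the calcium channel Piezo1. The sources used here give no strain, age, dose or way of bringing about diabetes, and mice were assigned to the treatments at random. Vehicle-treated or healthy skin was not analysed here, so each difference sets CST against Yoda1.

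Fatty acid oxidation shortens fatty acids inside mitochondria. Carnitine carries long-chain acyl groups across the mitochondrial membranes, and a spiral of 4 reactions then removes acetyl-CoA units and passes electrons to the respiratory chain. Pyruvate dehydrogenase makes acetyl-CoA from pyruvate, and the TCA cycle oxidises the acetyl group from either source. Both routes are prominent in muscle and brown fat, and all cells with mitochondria carry the enzymes of the cycle. The series title names mitochondrial homeostasis of keratinocytes, and the question here is whether transcripts of these enzymes differed between the treatments.

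Values are FPKM, fragment counts scaled to gene length and library depth, as deposited, and where a sentence gives 3 values for a group they follow the order of mouse 1 to mouse 3. Depth recovered from the FPKM steps was 23791352 to 29620526 reads per library, and a single read on 1 kb of gene came to 0.0338 to 0.0420 FPKM. Although the labels also tag the samples as keratinocytes, the libraries held several cell types. Krt5, a basal keratinocyte keratin, measured 1408 to 2565 FPKM, the fibroblast collagen gene Col1a1 659 to 3528, and the skeletal muscle actin gene Acta1 2356 to 3538 in CST and 31.6 to 1539 in Yoda1 libraries. CST mouse 1 and Yoda1 mouse 3 stood apart from the other 4 libraries on the first principal component, and mitochondrially encoded transcripts took 6.72% and 7.61% of their FPKM sums against 3.25% to 3.81% elsewhere. Results that rest on these 2 libraries are given with and without them. In whole tissue, fewer cells of a type and less RNA per cell cannot be told apart.

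None of the tested enzymes of either route passed the test between CST and Yoda1 skin. Of the 30 genes, 29 had a mean of at least 1 FPKM and were tested with limma on log2(FPKM + 1), and 0 passed an adjusted p of 0.05. None (0) had an unadjusted p below 0.05 either, and the smallest unadjusted p, that of Idh3a, was 0.117. Over all 14588 tested genes limma called 0%, and 4% had an unadjusted p under 0.05, 3.21% with the higher mean in CST. The log2 change, CST minus Yoda1, ran from -0.13 for Cpt1a to 0.34 for Idh3a. The 95% interval of each of the 29 changes included 0, and their widths differed by gene. The narrowest, that of Idh3b, ran from 0.895-fold to 1.598-fold, and the widest, that of Acads, from 0.547-fold to 1.81-fold.

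**Figure D1:**
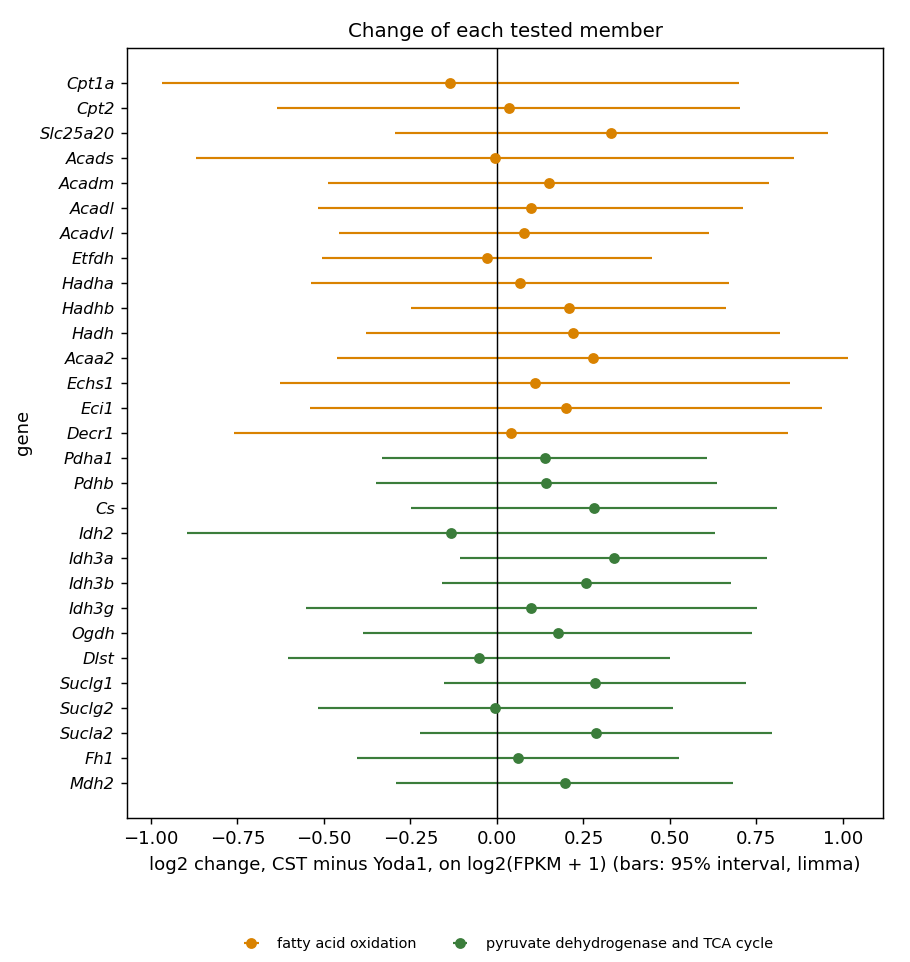
Log2 change of each tested enzyme gene (CST minus Yoda1) in units of log2(FPKM + 1), with 95% limma intervals as bars. All 29 intervals cross 0, and the points lie between -0.13 and 0.34.

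The fatty acid oxidation genes had 12 positive and 3 negative changes among 15 tested, with a median of 0.10. The pyruvate dehydrogenase and TCA cycle genes had 11 positive and 3 negative changes among 14, with a median of 0.16. Over all tested genes the median was -0.01 and 47.2% of changes were positive. Groups did not overlap in 6.59% of all tested genes, with 4.52% of all tested genes higher and 2.08% lower in CST. They did not overlap in 0 of the 15 fatty acid oxidation genes and in 4 of the 14 TCA cycle genes, all 4 higher in CST. These 4 genes were Idh3a and Idh3b, of NAD-dependent isocitrate dehydrogenase, and Suclg1 and Sucla2, of succinyl-CoA ligase.

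**Figure D2:**
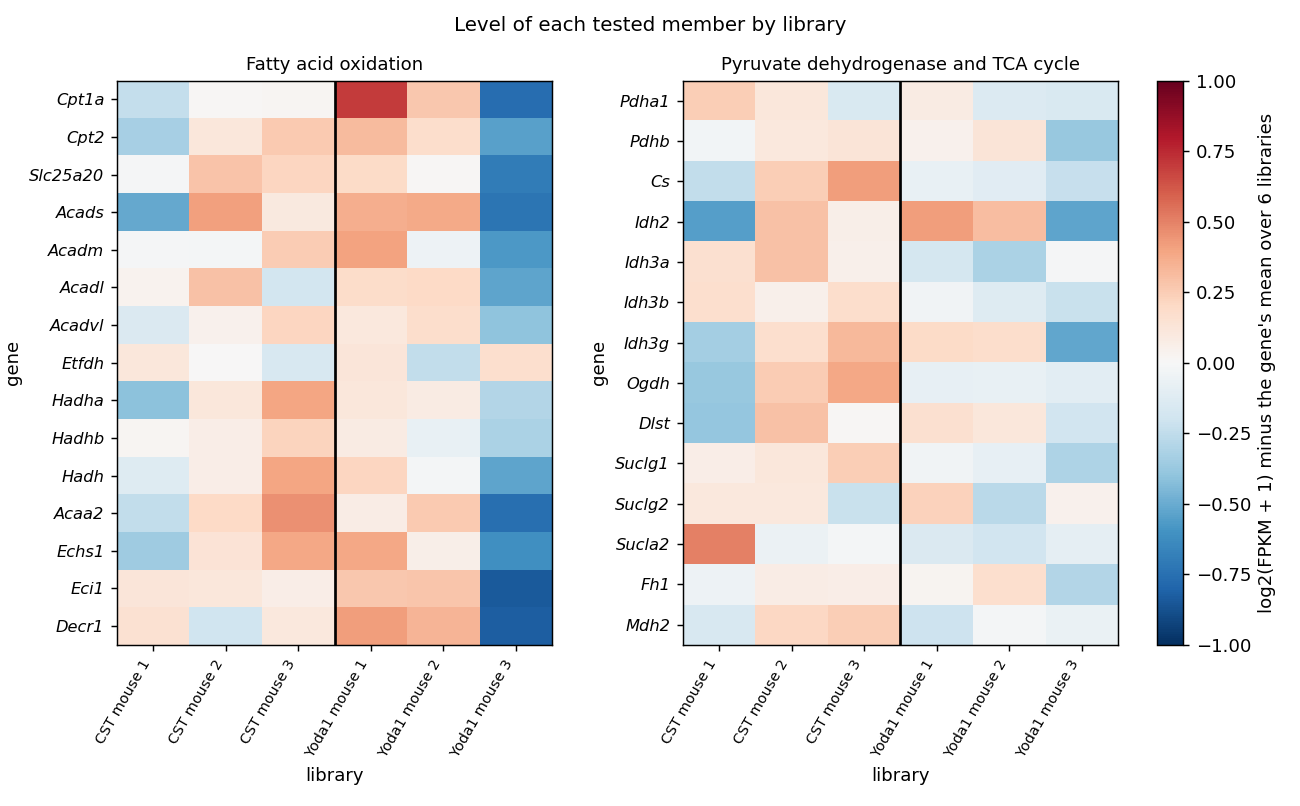
Level of each tested gene in each of the 6 libraries, as log2(FPKM + 1) minus the mean of that gene over the 6 libraries (red above, blue below the mean). The column of Yoda1 mouse 3 is the lowest for 13 of the 15 fatty acid oxidation genes, while the TCA cycle genes are spread more evenly.

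Yoda1 mouse 3 had the lowest value of the 6 libraries in 13 of the 15 tested genes (86.7%), against 29.1% of all tested genes. The exceptions were Etfdh, with its lowest value in Yoda1 mouse 2, and Hadha, with its lowest value in CST mouse 1. Among the TCA cycle genes 5 of 14 were lowest in Yoda1 mouse 3 and 4 in CST mouse 1. Summed over the 15 genes, the FPKM reached 792, 930 and 999.9 in the CST mice against 1017, 941 and 606 in the Yoda1 mice. The 14 TCA cycle genes summed to 1204, 1394 and 1387 in the CST mice against 1241, 1236 and 1077 in the Yoda1 mice. The sum for fatty acid oxidation in Yoda1 mice 1 and 2 thus lay inside or above the range of the CST mice, and that in Yoda1 mouse 3 lay below it.

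The carnitine shuttle brings long-chain fatty acids into mitochondria. Cpt1a, the carnitine palmitoyltransferase of the outer membrane and the step that malonyl-CoA inhibits (chromosome 19, 3322334 to 3385733 on GRCm38), measured 36.8, 43.9 and 44.2 FPKM in CST mice 1 to 3. In Yoda1 mice 1 to 3 it measured 71.1, 52.5 and 25.3. The Yoda1 values lay on both sides of all CST values, and the log2 change of -0.13 (SE 0.36, limma adjusted p = 1.000) was the most negative of the set. Without Yoda1 mouse 3 it was -0.55.

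Cpt1b, the muscle form of the same enzyme, was close to 0 in these libraries, although Acta1 shows muscle RNA in them. It was listed at 0 in CST mouse 1, 0.123 and 0.0586 FPKM in CST mice 2 and 3, and 0.0287, 0.0290 and 0.0357 FPKM in Yoda1 mice 1 to 3. These means lie far below the filter of 1 FPKM, and no fold is given. In GENCODE M21, 2744 of the 3372 exonic bases of Cpt1b (81.4%) are shared with Gm44502, a gene on the same strand that was listed at 0 in all 6 libraries. The sources used here do not state how reads in shared exons were counted, and the level of Cpt1b is uncertain.

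Cpt2, the partner transferase on the inner membrane, measured 31.5 to 48.1 FPKM in CST and 27.0 to 50.04 in Yoda1 mice, a log2 change of 0.03 (SE 0.29). Slc25a20, the carrier that exchanges acylcarnitine for carnitine, had the most positive change of the fatty acid oxidation genes. It measured 25.3, 31.4 and 29.9 FPKM in the CST mice against 29.2, 25.8 and 15.4 in the Yoda1 mice, for a log2 difference of 0.33 (SE 0.27) and a limma adjusted p of 1.000. The groups overlapped, and with 1 library left out the change ran from 0.06 (Yoda1 mouse 3 left out) to 0.51 (Yoda1 mouse 1 left out).

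The acyl-CoA dehydrogenases start each round of oxidation and divide the work by chain length. Acadvl, Acadl, Acadm and Acads act on very long, long, medium and short chains, and their means over the 6 libraries were 101, 108, 94.5 and 21.9 FPKM. Acadm measured 91.7, 91.5 and 110 FPKM in the CST mice against 122, 89.4 and 61.8 in the Yoda1 mice. The Yoda1 mice held both the highest and the lowest value, and the log2 change was 0.15 (SE 0.27). The changes of Acadl (0.10), Acadvl (0.08) and Acads (-0.01) were smaller than their standard errors of 0.27, 0.23 and 0.37. Opposite-strand exons of Dvl2 (mean 7.58 FPKM) cover 42.9% of the exonic bases of Acadvl, and the sources used here do not state whether counting used strand. Etfdh, which hands the electrons on to ubiquinone, measured 27.3 to 33.1 FPKM in CST and 25.6 to 34.3 in Yoda1 mice, with its highest value in Yoda1 mouse 3, where 13 of the other genes of the route were lowest.

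Hadha and Hadhb encode the alpha and beta subunits of the trifunctional protein, which carries out the later 3 steps for long chains. The genes lie head to head on chromosome 5, Hadha on the minus and Hadhb on the plus strand, with 85 bases between their GENCODE starts. Hadha measured 92.0, 133 and 161 FPKM in the CST mice against 132, 129 and 99.8 in the Yoda1 mice, a log2 change of 0.07 (SE 0.26). Hadhb measured 61.1, 63.2 and 70.3 FPKM in the CST mice against 63.6, 57.1 and 48.2 in the Yoda1 mice, a log2 change of 0.21 (SE 0.20). CST mouse 3 was highest for both genes. The ratio of Hadha to Hadhb was 1.51 in CST mouse 1 and 2.07 to 2.29 in the other 5 libraries, so the balance of the pair was lowest in that library.

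Promoter stretches from RefSeq on GRCm38.p6 are shown for 3 loci of the route, all ending before the annotated gene starts: the region that Hadha and Hadhb share, with GC boxes (GGGCGG or its reverse complement) in capitals; that of Slc25a20, the most positive change of the route, with the ETS core CCGGAAGT in capitals; and that of Acadm, with a nuclear receptor half-site (AAGGTCA, here as its reverse complement) in capitals. The Hadha and Hadhb stretch is written on the plus strand (chr5:30155163-30155247), that of Slc25a20 on its plus strand (chr9:108662008-108662087) and that of Acadm on its minus strand (chr3:153944814-153944893).
Hadha and Hadhb: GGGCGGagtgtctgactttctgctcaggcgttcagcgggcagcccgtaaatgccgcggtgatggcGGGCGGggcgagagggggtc
Slc25a20: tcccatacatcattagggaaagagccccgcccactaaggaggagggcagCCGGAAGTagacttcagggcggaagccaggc
Acadm: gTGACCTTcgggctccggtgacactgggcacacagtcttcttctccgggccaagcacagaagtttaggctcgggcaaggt

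Promoter windows from 250 bases before to 50 bases after the start were at hand for 26 of the 30 genes, and both strands were searched. The GC box was in 20 of the 26 (76.9%) and in 38.2% of 27025 genes with a window. The ETS core was in 3 (11.5%), Cpt2, Slc25a20 and Dlst, against 4.31% of all genes. The half-site AAGGTCA was in 2 (7.69%), Acadm and Ogdh, against 5.38%. The extended half-site TNAAGGTCA, which contains AAGGTCA, was in 0 of the 26 against 1.43%, and the direct repeat bound by PPAR receptors (AGGTCA, any base, AGGTCA) in 0 against 0.0481%. These counts describe letters in the windows and no binding was measured.

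Hadh, Echs1 and Acaa2 serve the later steps for shorter chains. Acaa2, the thiolase that releases acetyl-CoA, measured 63.2, 86.3 and 103 FPKM in the CST mice against 78.8, 90.2 and 44.1 in the Yoda1 mice. The groups overlapped, and the log2 change of 0.28 (SE 0.32) ran from -0.03 with Yoda1 mouse 3 left out to 0.48 with Yoda1 mouse 2 left out. Hadh, the hydroxyacyl-CoA dehydrogenase, measured 62.4 ± 11.9 FPKM with CST and 54.0 ± 13.6 with Yoda1, and Echs1, the enoyl-CoA hydratase, 18.9 ± 4.94 and 17.7 ± 6.14 (mean FPKM ± SD, n = 3).

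Eci1 and Decr1 prepare unsaturated fatty acids for the spiral. Decr1, the dienoyl-CoA reductase, measured 51.3, 39.9 and 49.7 FPKM in the CST mice against 61.8, 58.6 and 25.6 in the Yoda1 mice. Eci1, the enoyl-CoA isomerase, measured 26.8, 26.6 and 25.7 FPKM in the CST mice against 29.7, 29.8 and 13.3 in the Yoda1 mice. In both genes Yoda1 mice 1 and 2 lay above every CST mouse and Yoda1 mouse 3 lay below every one. The changes were 0.04 (SE 0.35) for Decr1 and 0.20 (SE 0.32) for Eci1, and -0.36 and -0.17 without Yoda1 mouse 3.

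Leaving out libraries changed the sign of the fatty acid oxidation median. Without Yoda1 mouse 3 it was -0.10, with 4 of 15 changes positive, and without both CST mouse 1 and Yoda1 mouse 3 it was -0.02, with 6 positive. Leaving out another mouse gave 0.26 (Yoda1 mouse 1), 0.21 (CST mouse 1), 0.19 (Yoda1 mouse 2), 0.08 (CST mouse 2) and 0.04 (CST mouse 3). The TCA cycle median stayed positive in all 7 of these fits, between 0.10 and 0.22. In each of them limma called 0 of the 29 genes, where it called 0.933% of all tested genes without Yoda1 mouse 2, 0.055% without CST mouse 2 and 0% in the other 5. With sample weights the fatty acid oxidation median was -0.09 and the TCA cycle median 0.10, and again 0 of the 29 were called, where 9.24% of all tested genes were, 4.49% higher and 4.75% lower in CST. Estimation of these weights did not converge, and Yoda1 mouse 1 had a weight of 12.8 against 0.193 to 2.47 in the other libraries.

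**Figure D3:**
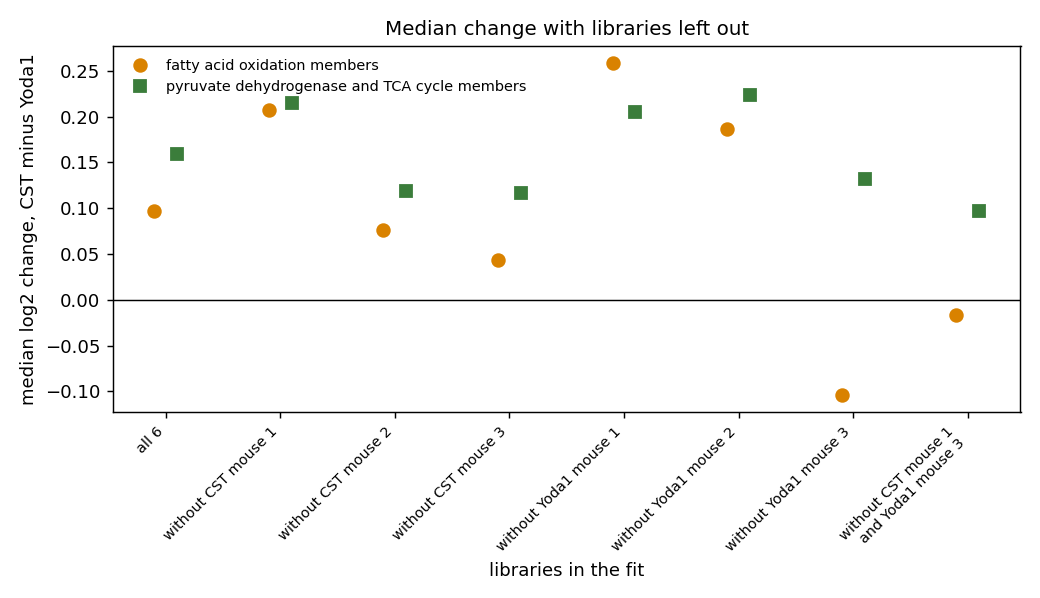
Median log2 change, CST minus Yoda1, of the 15 fatty acid oxidation genes (circles) and the 14 pyruvate dehydrogenase and TCA cycle genes (squares) with all 6 libraries and with libraries left out. The circles fall to -0.10 without Yoda1 mouse 3, and the squares stay between 0.10 and 0.22.

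Pyruvate dehydrogenase feeds the cycle from glucose. Pdha1 and Pdhb, the alpha and beta subunits of its first enzyme, measured 127 ± 17.6 and 142 ± 8.20 FPKM with CST. With Yoda1 they measured 114 ± 10.6 and 130 ± 23.5, and both log2 changes were 0.14. Cs, citrate synthase, which joins acetyl-CoA to oxaloacetate, measured 81.0, 114 and 129 FPKM in the CST mice against 91.4, 88.6 and 81.8 in the Yoda1 mice. CST mice 2 and 3 lay above all Yoda1 mice and CST mouse 1 lay below them, for a log2 change of 0.28 (SE 0.23) that was 0.47 without CST mouse 1 and 0.14 without CST mouse 3.

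The isocitrate dehydrogenases include an NAD-dependent enzyme of 3 subunit types (Idh3a, Idh3b, Idh3g) and the NADP-dependent Idh2. Idh3a, the catalytic subunit (chromosome 9, 54586334 to 54604661 on GRCm38), measured 42.2, 46.2 and 39.0 FPKM in the CST mice against 33.1, 29.9 and 37.3 in the Yoda1 mice. Idh3b (chromosome 2, 130279309 to 130284547) measured 75.4, 69.3 and 75.7 in the CST mice against 65.4, 61.3 and 57.1 in the Yoda1 mice. Each CST value of these 2 genes lay above each Yoda1 value, with log2 changes of 0.34 (SE 0.19) and 0.26 (SE 0.18) and a limma adjusted p of 1.000 for both.

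Idh3g, the remaining regulatory subunit, measured 62.6, 89.6 and 100 FPKM in the CST mice against 91.2, 90.0 and 55.4 in the Yoda1 mice, a log2 change of 0.10 (SE 0.28). Idh2 measured 38.8, 70.6 and 59.7 in the CST mice against 76.9, 71.1 and 39.5 in the Yoda1 mice, a log2 change of -0.13 (SE 0.33). Both had their lowest values in CST mouse 1 and Yoda1 mouse 3. Idh3b was also lowest in Yoda1 mouse 3 but measured 75.4 in CST mouse 1, and Idh3a was lowest in Yoda1 mouse 2. The change of Idh3a stayed between 0.26 and 0.42 with 1 library left out at a time, and that of Idh3b between 0.21 and 0.31.

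Ogdh and Dlst encode the first and second enzymes of the 2-oxoglutarate dehydrogenase complex. Ogdh measured 53.1, 82.8 and 90.9 FPKM in the CST mice against 65.3, 65.7 and 64.4 in the Yoda1 mice, so the Yoda1 mice lay close together and inside the CST range. Its log2 change was 0.18 (SE 0.24), 0.41 without CST mouse 1 and 0.03 without CST mouse 3. Dlst measured 94.9 ± 22.0 FPKM with CST and 97.2 ± 12.6 with Yoda1.

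Succinyl-CoA ligase pairs the alpha subunit Suclg1 with either Sucla2, the ATP-forming beta subunit, or Suclg2, the GTP-forming one. Suclg1 (chromosome 6, 73248382 to 73276911) measured 54.3, 56.1 and 61.6 FPKM in the CST mice against 50.5, 49.0 and 41.5 in the Yoda1 mice. Sucla2 (chromosome 14, 73525319 to 73596142) measured 143, 96.1 and 99.0 in the CST mice against 90.6, 87.5 and 94.2 in the Yoda1 mice. Neither pair of groups overlapped, with log2 changes of 0.28 (SE 0.19) and 0.29 (SE 0.22) and a limma adjusted p of 1.000 for both. Without CST mouse 1, whose value stood far above the rest, the change of Sucla2 was 0.10. Suclg2 measured 22.0 ± 2.94 FPKM with CST and 22.2 ± 3.998 with Yoda1, and the ratio of Sucla2 to Suclg2 was 4.06 to 6.03 in CST and 3.50 to 4.87 in Yoda1 mice, with overlapping groups.

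Fh1, fumarase, measured 58.4 ± 2.88 FPKM with CST and 56.4 ± 9.05 with Yoda1. Mdh2, the mitochondrial malate dehydrogenase that closes the cycle, had the highest level of the 30 genes. It measured 227, 293 and 303 FPKM in the CST mice against 220, 251 and 242 in the Yoda1 mice, and CST mice 2 and 3 lay above all Yoda1 mice. Its log2 change was 0.20 (SE 0.21), and ran from 0.12 without CST mouse 3 to 0.33 without CST mouse 1.

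Around the enzymes, 133 further genes of fuel entry, neighbouring steps and regulation were read from 9 lists. Of these 125 were tested and limma called 0, with 70 positive and 55 negative changes. In 6 of the 125 the CST values all lay above the Yoda1 values and in 1 they all lay below, where 4.52% and 2.08% of all tested genes did, so the count is near that background.

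Pdk4, a kinase that shuts off pyruvate dehydrogenase when fat is burned, had the smallest unadjusted p of the 125. It measured 33.2, 35.9 and 26.5 FPKM in the CST mice against 11.3, 12.3 and 2.12 in the Yoda1 mice. The groups did not overlap, and the log2 change was 2.03 (SE 0.53, unadjusted p = 0.00524, limma adjusted p = 0.579), with 1.35 without Yoda1 mouse 3 and 1.31 without that mouse and CST mouse 1. Of the alternatives run, sample weights alone took Pdk4 past the threshold (limma adjusted p = 0.0168). The estimation of those weights did not converge, and Yoda1 mouse 1 carried by far the largest weight. Pdk2, a kinase of the same family, measured 34.4, 37.6 and 50.01 in the CST mice against 19.5, 29.6 and 4.80 in the Yoda1 mice, again without overlap. Its log2 change was 1.42 (SE 0.56, limma adjusted p = 1.000), and 0.72 without Yoda1 mouse 3 and 0.82 without that mouse and CST mouse 1. The other 2 kinases, Pdk1 and Pdk3, had changes of 0.08 and 0.03. Over the 14 genes of the gates of fuel entry 11 changes were positive, with a median of 0.10, and Acacb, which makes malonyl-CoA at the mitochondrion, had a change of 0.14 (SE 0.28) and Crat, carnitine acetyltransferase, of 0.24.

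**Figure D4:**
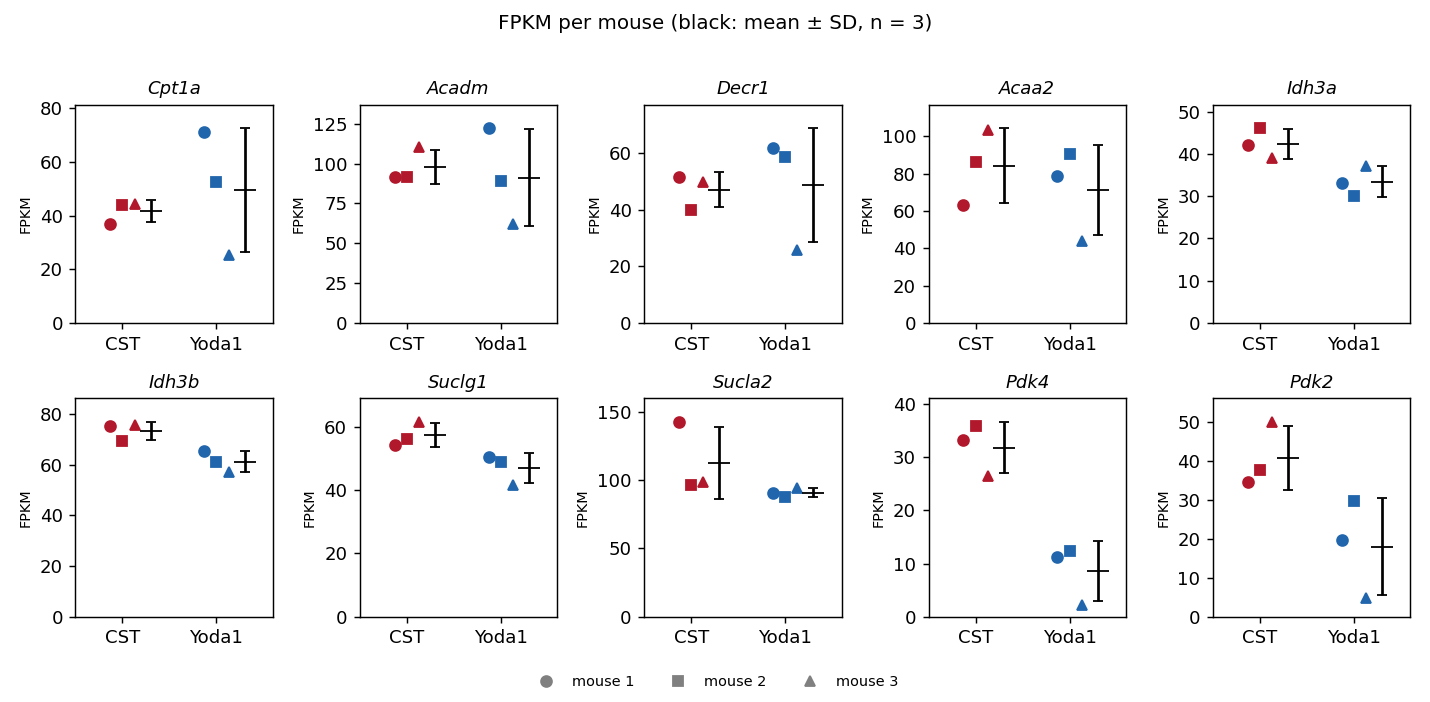
FPKM of 8 enzyme genes and of the kinase genes Pdk4 and Pdk2 in each mouse, with the mean and SD of the 3 mice of a group in black. Cpt1a, Acadm, Decr1 and Acaa2 are lowest in Yoda1 mouse 3, while in Idh3a, Idh3b, Suclg1, Sucla2, Pdk4 and Pdk2 all CST points lie above all Yoda1 points.

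The list of fatty acid uptake and activation had 10 positive and 6 negative changes among 16 tested genes. Fabp3, the fatty acid-binding protein of muscle and heart, measured 44.2, 64.0 and 32.3 FPKM in the CST mice against 3.32, 55.9 and 5.77 in the Yoda1 mice. Yoda1 mouse 2 lay within the CST range, and the log2 change of 1.96 (SE 0.86, limma adjusted p = 1.000) was 3.09 without that mouse (limma adjusted p = 0.00899). With a score of skeletal muscle markers as a covariate it was -0.75. Fabp4, the binding protein of adipocytes, was lower in each CST mouse, with 174, 199 and 232 in the CST mice against 871, 245 and 288 in the Yoda1 mice (log2 change -0.98, SE 0.46). Without Yoda1 mouse 1 the change of Fabp4 was -0.41, and over the 6 fits with a library left out it ran from -1.32 to -0.41. Acsl3, which activates long-chain fatty acids, had a change of 0.45, again with no overlap.

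Among other mitochondrial beta-oxidation genes 11 of 19 changes were positive. Etfa and Etfb, the electron-transfer flavoprotein subunits upstream of Etfdh, had changes of -0.01 (SE 0.20) and 0.22 (SE 0.48), and the smallest p were those of Ech1 (-0.21), Echdc3 (0.33) and Cpt1c (-0.28). The peroxisomal list was even, with 8 positive and 8 negative changes, Phyh at 0.22, Abcd3 at 0.21 and Abcd2 at -0.41. Of 11 further pyruvate dehydrogenase and TCA cycle subunits 8 were positive. Among them Sdha, a subunit of succinate dehydrogenase, had a change of 0.06, Dld of -0.01, Dlat of 0.13 and the assembly factor gene Sdhaf2 of -0.12.

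In the list of cytosolic counterparts and anaplerosis 5 of 15 changes were positive, with Got2, the mitochondrial aspartate aminotransferase, at 121 ± 7.04 FPKM with CST and 98.4 ± 9.44 with Yoda1 and no overlap. Its cytosolic partner Got1 had a change of 0.52 and the malic enzyme gene Me2 one of -0.38. Of 8 ketone body genes 5 were positive, with Bdh2 at -0.17 and Oxct1 at 0.10. Of 10 fatty acid synthesis genes 5 were positive, and Elovl6 (0.31, no overlap), Elovl1 (0.30) and Mlxipl (0.58) had the smallest p.

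Regulators of these enzymes had 7 positive and 9 negative changes among 16 tested. Prkaa2, a catalytic subunit of the energy sensor AMPK, measured 3.89, 1.24 and 1.57 FPKM in the CST mice against 0.373, 0.873 and 0.723 in the Yoda1 mice, for a log2 difference of 0.89 (SE 0.33) and a limma adjusted p of 0.947 with no overlap. Lpin1 had a change of 0.69. Ppard, Pparg and Esrra, nuclear receptors that bind promoters of oxidation genes, had changes of 0.22 (SE 0.30), -0.31 (SE 0.31) and 0.15 (SE 0.25). Ppara, a nuclear receptor best known in liver, measured 0.623 to 0.892 in CST and 0.838 to 0.977 in Yoda1 mice and lay under the filter. Ppargc1a, a coactivator of mitochondrial genes, also lay under it, with 0.974 to 1.51 in CST and 0.207 to 0.584 in Yoda1 mice.

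Markers of muscle, neutrophils, fibroblasts, fat, macrophages and keratinocytes differed between these libraries, and their part in the values above was not tested beyond a fit with the muscle score as a covariate. Of 26 skeletal muscle markers 22 were higher in every CST mouse than in every Yoda1 mouse, and their summed FPKM was 20031, 9965 and 18199 in the CST mice against 173, 7448 and 846 in the Yoda1 mice. The summed fatty acid oxidation genes were highest in Yoda1 mouse 1, where the muscle sum was lowest. When the muscle score entered the fit as a covariate, the median was 0.06 for fatty acid oxidation and 0.25 for TCA cycle genes, and Pdk4 and Pdk2 had changes of 1.70 and 0.68, with 0 genes called. All 3 CST mice had higher muscle scores than all 3 Yoda1 mice, so the covariate and the treatment are partly confounded.

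Neutrophil markers (13 genes) summed to 13116, 2243 and 2165 FPKM in the CST mice against 1867, 862 and 4347 in the Yoda1 mice. These sums were highest in CST mouse 1 and Yoda1 mouse 3, which had the lowest sums of fatty acid oxidation genes. In Yoda1 mouse 3, S100a8 (1486.5 FPKM) and S100a9 (2539 FPKM) made up most of the neutrophil sum. Each of the other neutrophil markers was lower in Yoda1 mouse 3 than in CST mouse 2. Mmp9 and Il1r2 had their lowest values of all libraries in Yoda1 mouse 3. The 10 fibroblast markers summed to 3974 to 6613 in CST and 3832 to 12197 in Yoda1 mice, with the lowest sums in CST mouse 1 and Yoda1 mouse 3. Col1a1, Col1a2, Col3a1, Fbn1 and Thy1 were lowest in these libraries, and Pdgfra, Dcn, Lum, Pdgfrb and Dpt did not share that order. Dcn and Lum were lowest in CST mouse 3. The 14 adipocyte markers summed to 1270 to 2372 in CST and 1405 to 4085 in Yoda1 mice, highest in Yoda1 mouse 1, where Cpt1a and Decr1 were highest. Only 1 of the 14, Car3, had the higher mean in CST, and it gave 1211 of the 2372 FPKM in CST mouse 1. The 12 macrophage markers summed to 2464, 2271 and 1697 in the CST mice against 4621, 5356 and 1615 in the Yoda1 mice, lowest in Yoda1 mouse 3. The 14 keratinocyte markers summed to 17641, 19767 and 25184 in the CST mice against 13616, 14469 and 30509 in the Yoda1 mice, highest in Yoda1 mouse 3, where 13 of the 15 fatty acid oxidation genes were lowest. Krt14 alone gave 14601 FPKM of the sum in Yoda1 mouse 3. Krt5, Krt14, Dsg3, Dsc3, Trp63, Itga6, Itgb4, Sfn and Perp were highest in that library. Krt1, Krt10, Krt15, Ivl and Lor were highest in CST mouse 3, and Krt15 was lowest in Yoda1 mouse 3. The 8 brown fat markers, a list that includes Pdk4 and Ppargc1a, had the higher mean in CST in 6 genes. They summed to 170, 216 and 296 FPKM in the CST mice against 149, 173 and 110 in the Yoda1 mice. Elovl3 and Cidea made up most of each of these sums. Of this list, Ucp1 measured 0.0210 to 0.110 in CST mice and 3.69, 0.0626 and 0.0771 in Yoda1 mice 1 to 3. Zic1 was lower in every CST mouse, with 0.254, 0.823 and 0.117 in the CST mice against 2.77, 1.85 and 1.22 in the Yoda1 mice. The defining cardiac genes Myh6 and Nppa were each listed at 0 in 5 of 6 libraries. The list of 7 cardiac markers summed to 19.9, 328 and 25.7 FPKM in the CST mice against 29.5, 421 and 72.6 in the Yoda1 mice. In CST mouse 2 and Yoda1 mouse 2, Myl4 measured 209 and 246 FPKM and Tnnt2 113 and 170 FPKM.

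**Figure D5:**
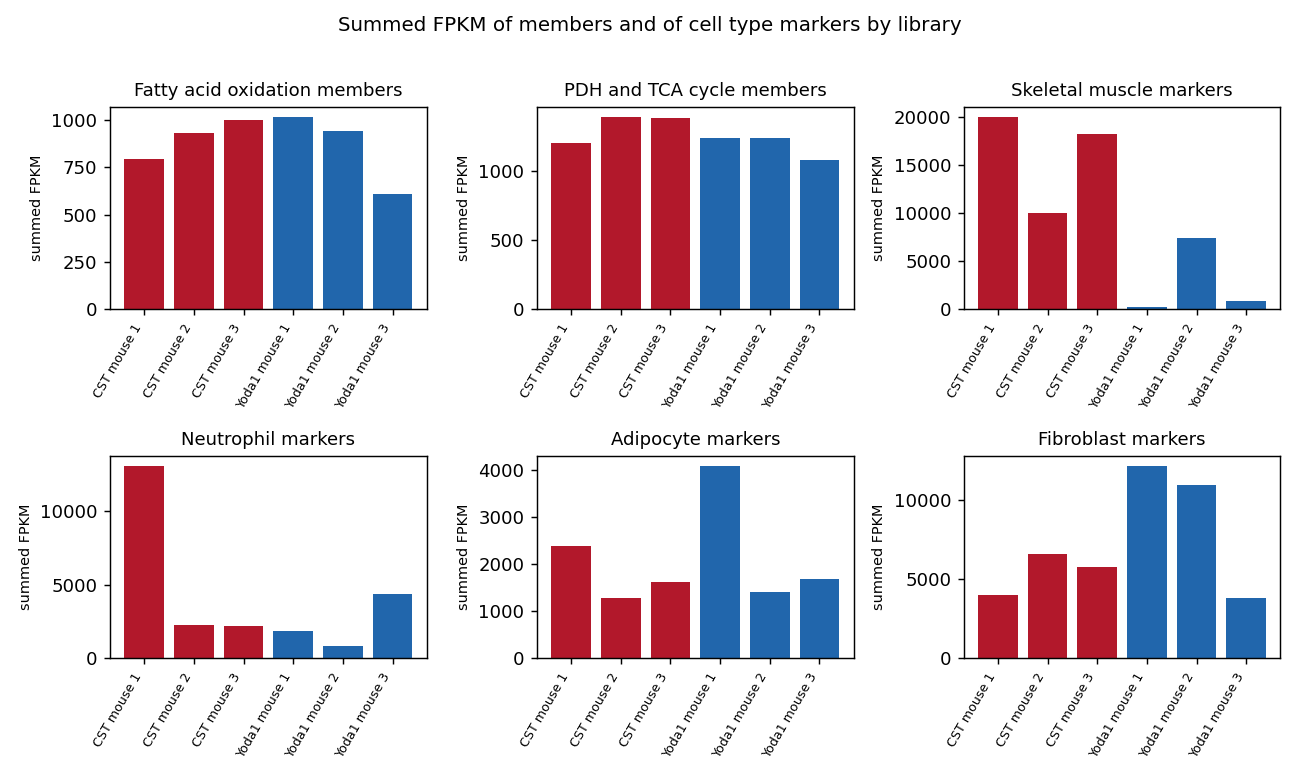
Summed FPKM of the tested fatty acid oxidation genes, of the pyruvate dehydrogenase (PDH) and TCA cycle genes, and of the markers of 4 cell types in each library (red CST, blue Yoda1). The muscle sums differ from 173 to 20031, while the fatty acid oxidation sums lie between 606 and 1017.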

How the data were processed

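Skin RNA of 6 mice was sequenced, and the authors deposited 1 table of FPKM values for 57010 genes. Genome builds listed in the submitters' processing notes are GRCm38 and mm10. The sources used here do not state the aligner, the counting tool or strandedness. Groups and mouse numbers come from the sample titles. Mice of a group are labelled as separate animals.

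Depth was recovered from the FPKM steps, and each of the 14588 tested genes then gave whole reads (within 0.0005 reads, a tolerance scaled up for genes with many reads). Genes whose mean over the 6 libraries reached 1 FPKM entered a two-sided test in limma 3.58.1 (R 4.3.3, eBayes with trend) on log2(FPKM + 1). No covariates were used, p-values were adjusted by Benjamini-Hochberg over the tested genes, and the threshold was 0.05. This scale understates changes of genes with low values. The fit was checked on data simulated with a dispersion (spread between replicates) of 0.05. It recovered 54% of 2-fold and 98% of 4-fold changes, with 21 false calls among unchanged genes. The simulation gave all genes the same dispersion and left out differences in cell types between libraries. These shares therefore do not measure the power in the real data, where Acta1 at 15.7-fold was not called (limma adjusted p = 0.663). The changes of all tested members were smaller than 2-fold, and such sizes were not simulated. SEs are limma's.

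The members and lists were chosen with earlier results of these data known. The genes named are the 30 members, the 3 tested genes of smallest p in each of 9 pathway lists, a fixed panel of 12 genes, and markers; Pdk1 and Pdk3 were added after their values were seen, and 2 genes that the rule names are not reported here. Gene positions were looked up by Ensembl identifier in GENCODE M21 (GRCm38). T cell, endothelial and sebocyte marker lists were also read: the T cell list summed to 9.78 to 37.7 FPKM over the 6 libraries, the endothelial one to 111 to 243 and the sebocyte one to 1898 to 2425.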

Additional observations from a re-analysis of the deposited data

How the results depend on the processing

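Limma called 0 genes with all 6 libraries and 0 to 136 with 1 library left out (136 without Yoda1 mouse 2 and 8 without CST mouse 2, 0 otherwise), and 1348 with sample weights, whose estimation did not converge and gave Yoda1 mouse 1 a weight of 12.8 against 0.193 to 2.47. None of the 29 tested members was called in any of the 16 alternatives (0.1 pseudocount, no filter, 2 other scalings, muscle and mitochondrially encoded genes removed, limma-voom on recovered reads, muscle covariate, replicate block, sample weights, libraries left out). The labels do not state that mouse numbers pair animals across the groups. Correlations of same-numbered deviations were -0.08, 0.21 and -0.20, too few values to decide it. With the replicate block 0 genes were called, the medians were 0.10 and 0.16, and no call changed. Signs differed from those above, with the cause not tested, in these cases. With the muscle covariate the log2 changes were Cpt1a 0.0263, Acadvl -0.0462, Etfdh 0.27, Decr1 -0.15, Dlst 0.033, Suclg2 0.40, Fh1 -0.0828, Fabp3 -0.75, Fabp4 0.25, Abcd2 0.80, Oxct1 -0.16, Pparg 0.37, Dld 0.0737, Etfa 0.26 and Etfb -0.40. With sample weights they were Cpt2 -0.19, Acadm -0.32, Acadl -0.0108, Acadvl -0.0374, Hadh -0.0672, Echs1 -0.21, Eci1 -0.15, Decr1 -0.50, Pdha1 -0.0017, Idh3g -0.0211, Dlst 0.0214, Echdc3 -0.54, Oxct1 -0.0797, Lpin1 -0.0784 and Etfb -0.0748, and those past the threshold were Fabp3 3.46, Fabp4 -1.98, Pdk2 0.99, Pdk4 1.502, Ech1 -0.44, Abcd2 -1.58, Got1 0.51, Got2 0.40, Pparg -0.88 and Prkaa2 0.82. Without CST mouse 1 and Yoda1 mouse 3 together they were Cpt2 -0.057, Acadm -0.0566, Acadl -0.14, Acadvl -0.0141, Eci1 -0.18, Decr1 -0.43, Dlst 0.0173, Fh1 -0.0279, Echdc3 -0.0745, Oxct1 -0.0935 and Etfb -0.17. Ppard kept its sign in that fit, at 0.58. With 1 library left out at a time, changes that crossed 0 or the threshold ranged as follows: Acads -0.37 to 0.25, Decr1 -0.36 to 0.26, Idh2 -0.43 to 0.11, Dlst -0.21 to 0.13, Cpt2 -0.23 to 0.21, Acadl -0.14 to 0.22, Sdha -0.0609 to 0.17, Dld -0.23 to 0.16, Acadvl -0.10 to 0.19, Etfdh -0.16 to 0.0472, Hadha -0.11 to 0.29, Echs1 -0.17 to 0.33, Idh3g -0.13 to 0.30, Suclg2 -0.14 to 0.11, Acacb -0.0881 to 0.39, Etfa -0.12 to 0.0614, Cpt1a -0.55 to 0.18, Abcd2 -0.83 to 0.12, Fabp3 1.23 to 3.09, Ppard -0.0403 to 0.52, Acadm -0.10 to 0.39, Acaa2 -0.0295 to 0.48, Eci1 -0.17 to 0.39, Pdhb -0.0126 to 0.24, Fh1 -0.069 to 0.16, Crat -0.0397 to 0.44, Echdc3 -0.0159 to 0.71, Oxct1 -0.0139 to 0.24 and Etfb -0.33 to 0.62. Of 29 members 9 kept their sign in all 16 alternatives. Fabp3 passed the threshold without Yoda1 mouse 2. Prkaa2 had no value without CST mouse 1, where it fell under the filter. With 3 mice a group an exact permutation test cannot give a two-sided p below 0.1.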
